A study of Mus musculus with 8 samples.

Results

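Genes of mitosis and the spindle were followed in mouse bone marrow cells transformed by Hoxa9 and Meis1, after loss of Meis1 and before it. The list held 50 genes, and its members were the probe sets whose gene symbol in the platform annotation was exactly 1 of the 50. Probe sets were found for 48 of them, 89 probe sets in all, while Ccnb1 and Nuf2 had none under those symbols and are not described by a level here. All 48 genes passed the filter on low values, and they make up 48 of the 11836 genes tested.

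The cells were bone marrow cells of C57BL/6 mice with a tamoxifen-inducible Cre recombinase, Cre-ERT2, knocked in at Rosa26, and all of them carried retroviral Hoxa9 and a retroviral, floxed Meis1. In the Meis1 deleted group, measured on 4 arrays, 2 µM 4-hydroxytamoxifen had been used to remove the Meis1 cDNA. The Hoxa9 and Meis1 group, also on 4 arrays, kept the cDNA and is described as untreated. The culture medium of all cells was IMDM with 10% FBS, with IL-3, a cytokine for early myeloid cells, at 5 ng/ml. Ages of the mice are not stated. Because the drug went to the Meis1 deleted cells alone, effects of the drug, of Cre activity and of Meis1 loss cannot be told apart. Separate cultures behind the arrays of a group are not stated, and every p-value therefore refers to the spread between these arrays alone, which may be technical.

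Mitosis is run by phosphorylation and by proteolysis. Cyclin B and Cdk1 drive entry, the kinases Plk1 and Aurka build the spindle, the spindle checkpoint holds cells until chromosomes are attached, and the anaphase-promoting complex then marks securin and cyclins for destruction so that separase can free the sister chromatids. Many of these genes are transcribed together late in the cell cycle under the MuvB, B-Myb and Foxm1 complexes, and their RNA levels are widely used as a read-out of dividing cells.

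Over all genes, 4474 of 11836 passed the test, and pairs of arrays correlated at 0.983 to 0.999. Hoxa9 read 8.95, 9.98, 9.97 and 10.07 in Meis1 deleted cells, against 10.11, 10.17, 10.21 and 9.83 in Hoxa9 and Meis1 cells (adjusted p = 0.266). For Meis1 the kept probe set averaged 5.02 ± 0.07 with Meis1 deleted and 5.00 ± 0.05 without deletion (SD, n = 4 each, adjusted p = 0.744), and since it is not known here whether it lies in the deleted cDNA, it checks nothing about the deletion. Of the marker lists, 7 of 7 macrophage genes were higher in Meis1 deleted cells, with summed linear levels of 7198 to 7501 against 1207 to 1330 in Hoxa9 and Meis1 cells. Progenitor genes were above the filter in 7 of 7 cases, with 2 higher (Mpo and Myb) and 3 lower (Cd34, Elane and Prtn3), and summed to 20021 to 20406 in Meis1 deleted cells and 20508 to 20618 in Hoxa9 and Meis1 cells. The most abundant of them were the granule proteases Ctsg, at 13.19 in Meis1 deleted cells and 13.17 in Hoxa9 and Meis1 cells, and Prtn3, at 12.52 in Meis1 deleted cells and 12.64 in Hoxa9 and Meis1 cells. The stem and progenitor marker Cd34 averaged 4.00 ± 0.08 in Meis1 deleted cells and 5.87 ± 0.21 in Hoxa9 and Meis1 cells, and fell by 1.87. Its mean in Meis1 deleted cells lay under the filter value of 4.29, so the size of the fall is uncertain. Pan-leukocyte and myeloid markers were above the filter in 5 of 5 cases, with 3 higher (Csf3r at 1.04, Spi1 at 0.28 and Ptprc at 0.21) and 1 lower (Cebpa at -0.36), and summed to 4296 to 4548 in Meis1 deleted cells and 3731 to 3838 in Hoxa9 and Meis1 cells. Of 3 megakaryocyte markers Pf4, a chemokine, was higher by 3.84, while Itga2b and Gp9 did not pass, and 0 of 4 fibroblast markers were above the filter. Their part in the changes of the mitosis genes was not tested. One library stood apart: Meis1 deleted replicate 1 had the largest 3′ minus 5′ differences of the control transcripts, 0.72 for Gapdh and 0.67 for Actb, where the other 7 arrays lay between -0.07 and 0.04 and between 0.32 and 0.38. Over the groups these differences were not told apart by an exact permutation test (two-sided p = 0.486 for Gapdh and 0.543 for Actb, smallest possible 0.0286). Where leaving out that array changed a member's call, or moved a called value by over 1.5 times, the value without it is given as well. In such bulk RNA, fewer dividing cells and less of an RNA per cell cannot be told apart.

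The mitosis genes did not move as 1 block. Of the 48 genes, 9 were higher in Meis1 deleted cells, 13 were lower and 26 did not pass (limma, Benjamini-Hochberg adjusted p under 0.05 over all genes). The highest were the mitotic kinase Plk1, the Cdk1-activating phosphatase Cdc25b, the securin Pttg1, the contractile ring protein Anln and the kinase Aurka. The lowest were the spindle protein Nusap1, the checkpoint protein Mad2l1, the centromeric histone Cenpa, and then Cdca3, Ccnb2, Cdk1, Cenpf and the proliferation marker Mki67. Values are log2 expression values as deposited, so a difference of 1 is a doubling.

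The share of mitosis genes called, 45.8%, stood beside 37.8% of all genes. Among all genes 19.1% were higher and 18.7% were lower, and for the mitosis genes 9 of 48 and 13 of 48. The groups did not overlap for 23 of the 48 genes, against 38.6% of all genes. Sizes were small. Only Plk1 changed by at least 0.5 on the log2 scale, which is 2.08% of the members, while 9.67% of all genes changed that much. The log2 fold changes ran from -0.32 to 0.51 with a median of -0.02, beside a median of -0.00 over all genes, and 18 members were under 0.1 in size. The plot by role shows called genes of both directions within some steps of mitosis, and of a single direction or none within others.

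**Figure D1:**
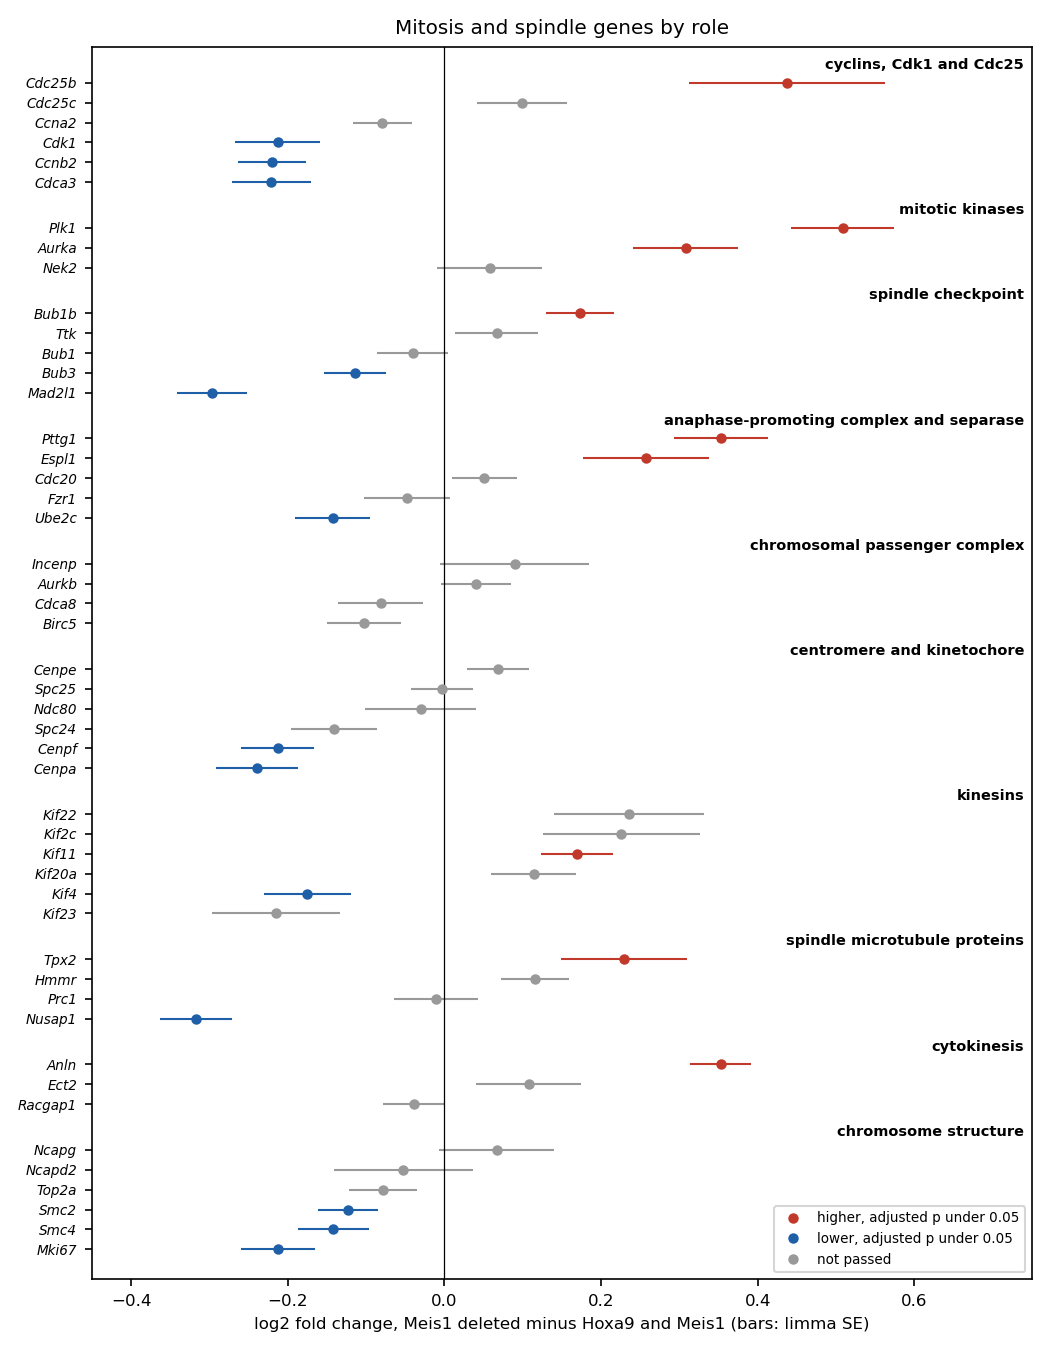
Log2 fold change (Meis1 deleted minus Hoxa9 and Meis1) of the 48 measured mitosis genes, grouped by role, with bars of 1 limma standard error. The 9 higher genes are led by Plk1 at 0.51 and the 13 lower genes by Nusap1 at -0.32, and the 4 genes of the chromosomal passenger complex lie between -0.10 and 0.09.

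The promoters of these genes show what the members share that the list did not use. Late cell cycle promoters are known for the cell cycle genes homology region, or CHR, which binds MuvB complexes, and for CCAAT boxes, which bind NF-Y. RefSeq promoter windows (GRCm38.p6, 250 bases before the annotated start and 50 from it on) were matched by symbol for 40 of the 48 measured members. The CHR was searched as TTTGAA or TTCGAA and the NF-Y box as CCAAT, on both strands. Matches of the 2 motifs can share an end base, which happened in 1 member, Cdca8, and 2 CCAAT matches on opposite strands can share bases, which happened in 1, Ube2c. The 5 windows below were chosen after values were seen: Plk1 and Cdc25b changed most among the higher genes, Cdk1 and Ccnb2 form the complex that Cdc25b activates and were lower, and Nusap1, the lowest, held neither motif. Capitals mark the matches, and each sequence runs 5′ to 3′ on the gene's strand.
Plk1, higher, chr7:122159185-122159484, plus strand: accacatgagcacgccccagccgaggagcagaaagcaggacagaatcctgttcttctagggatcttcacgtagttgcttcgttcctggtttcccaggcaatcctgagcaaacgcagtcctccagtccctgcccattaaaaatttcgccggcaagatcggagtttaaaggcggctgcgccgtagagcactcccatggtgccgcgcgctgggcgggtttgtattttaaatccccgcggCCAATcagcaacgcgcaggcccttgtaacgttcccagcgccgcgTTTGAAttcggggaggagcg
Cdc25b, higher, chr2:131186698-131186997, plus strand: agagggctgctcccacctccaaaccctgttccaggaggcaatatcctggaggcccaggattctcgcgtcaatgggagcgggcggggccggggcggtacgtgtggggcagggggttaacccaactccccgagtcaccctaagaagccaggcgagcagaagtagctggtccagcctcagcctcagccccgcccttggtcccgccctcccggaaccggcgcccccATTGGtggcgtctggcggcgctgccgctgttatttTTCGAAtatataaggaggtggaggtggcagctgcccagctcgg
Cdk1, lower, chr10:69352863-69353162, minus strand: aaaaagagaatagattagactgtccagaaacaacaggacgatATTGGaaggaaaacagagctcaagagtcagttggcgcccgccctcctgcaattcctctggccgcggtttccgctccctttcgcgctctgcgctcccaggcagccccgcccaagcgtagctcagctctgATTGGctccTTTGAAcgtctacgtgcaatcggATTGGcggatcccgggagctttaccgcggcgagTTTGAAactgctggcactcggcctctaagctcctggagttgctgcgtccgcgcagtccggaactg
Ccnb2, lower, chr9:70421505-70421804, minus strand: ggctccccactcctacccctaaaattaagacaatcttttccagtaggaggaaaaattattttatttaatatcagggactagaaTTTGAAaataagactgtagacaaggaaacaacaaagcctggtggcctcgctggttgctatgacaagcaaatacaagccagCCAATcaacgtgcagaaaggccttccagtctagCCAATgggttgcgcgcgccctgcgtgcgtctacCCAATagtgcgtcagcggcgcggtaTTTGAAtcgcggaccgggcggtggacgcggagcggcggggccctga
Nusap1, lower, chr2:119618048-119618347, plus strand: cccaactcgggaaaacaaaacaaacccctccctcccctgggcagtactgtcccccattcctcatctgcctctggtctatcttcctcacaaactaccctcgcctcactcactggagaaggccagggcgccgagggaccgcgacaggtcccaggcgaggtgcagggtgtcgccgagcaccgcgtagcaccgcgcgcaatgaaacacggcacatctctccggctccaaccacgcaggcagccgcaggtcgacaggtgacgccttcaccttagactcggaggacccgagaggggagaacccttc

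In Plk1 the CHR match began 30 bases after the start base and the single CCAAT match 14 bases before it. In Cdc25b they began 7 bases after and 28 bases before. Cdk1 had 2 CHR and 3 CCAAT matches, and so did Ccnb2, where the CHR match nearest the start began 4 bases after it. Of the 40 windows, 33 held a CHR match (82.5%), against 21.7% of all 27025 genes with a window and 16.7% of the 9589 tested genes. CCAAT matches were in 33 windows as well (82.5%, against 41.1% of all genes and 42.7% of tested genes), and both motifs in 30 (75%, against 8.61% and 6.84%).

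CHR matches stood in genes of both directions. They were found in 7 of 8 higher members, 10 of 12 lower members and 16 of 20 that did not pass. At least 2 CCAAT matches were found in 1 of the 8 higher members, Aurka, in 9 of the 12 lower members and in 11 of the 20 that did not pass, beside 16.2% of tested genes. These counts are descriptions of the letters and were not tested. Neither motif was found in the windows of Pttg1, which was higher, of Mad2l1 and Nusap1, which were lower, or of Birc5, which did not pass. The Pttg1 window (chr11:43425932-43426231, minus strand) lies inside the gene, which reaches 43427463, so sequence before the outermost start was not searched. Windows of Kif2c, Cdc25b, Aurka, Cdca3, Ncapd2 and Ect2 also lie inside their genes, with the same limit.

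**Figure D2:**
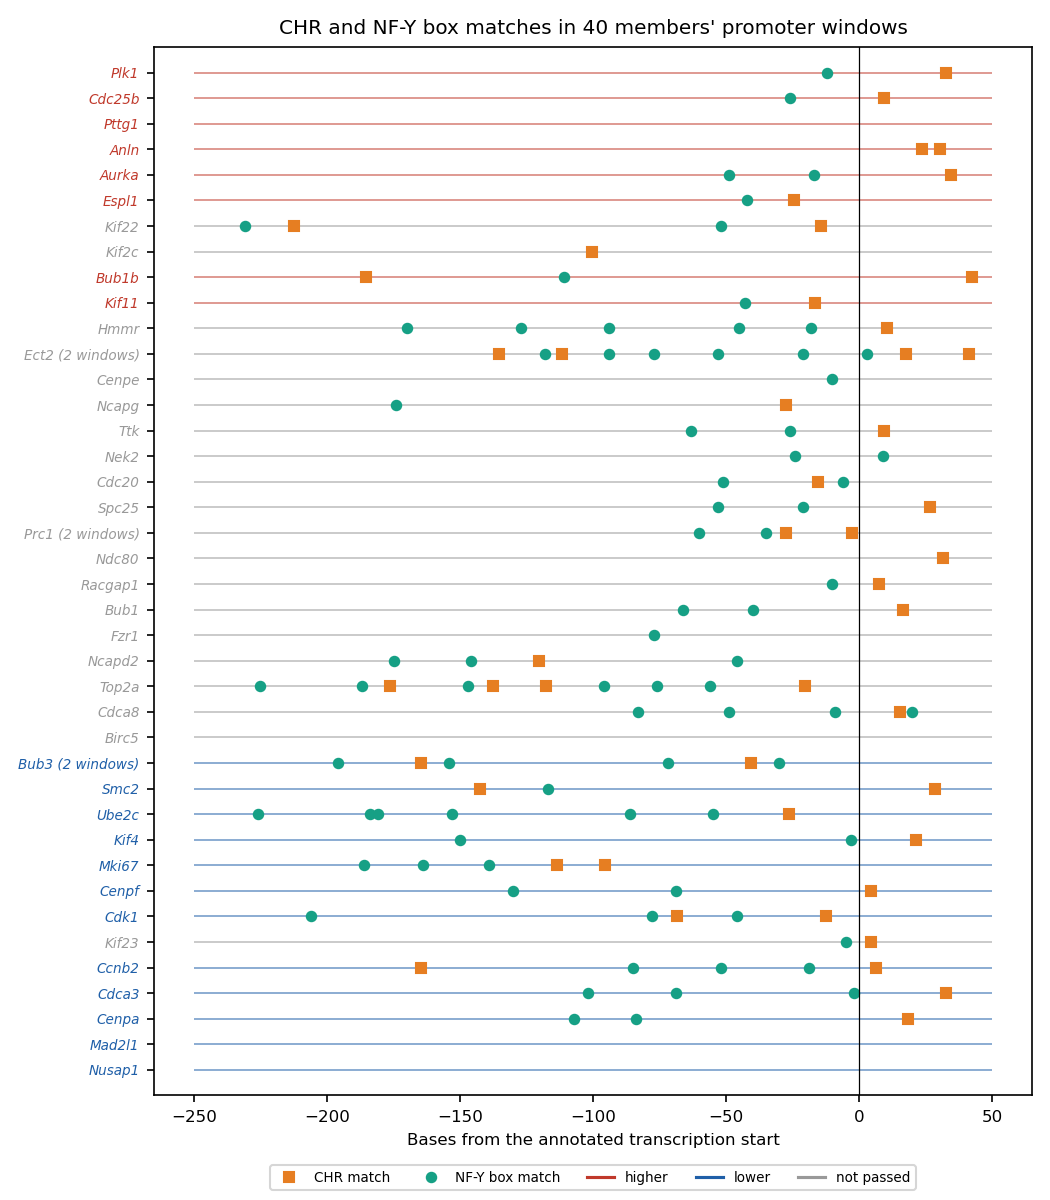
Positions of CHR and NF-Y box matches, in bases from the annotated transcription start, in the RefSeq windows of 40 measured members, ordered from the highest log2 fold change to the lowest and coloured by their call (genes with 2 windows show both, each from its own start). Windows of the lower genes Ccnb2 and Cdk1 hold 3 NF-Y box matches each, and those of the lower genes Nusap1 and Mad2l1 hold none. Among higher genes that of Plk1 holds 1 and that of Aurka 2, and that of Top2a, which did not pass, holds 6.

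Entry into mitosis depends on cyclin B and Cdk1, which Cdc25 phosphatases switch on. Cdc25b, the phosphatase that first activates Cdk1 at the centrosome, read 7.18, 6.63, 6.59 and 6.70 in Meis1 deleted cells, against 6.38, 6.14, 6.42 and 6.40 in Hoxa9 and Meis1 cells. Every Meis1 deleted array was above every Hoxa9 and Meis1 array, and replicate 1 of the Meis1 deleted arrays was the highest of all. The log2 fold change was 0.44 ± 0.12 (SE, adjusted p = 0.0199). It was 0.30 without Meis1 deleted replicate 1 (adjusted p = 0.00740), and the call was lost without Hoxa9 and Meis1 replicate 2 (0.37, adjusted p = 0.0571).

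Its substrate moved the other way. Cdk1 read 10.51, 10.42, 10.48 and 10.54 in Meis1 deleted cells, against 10.63, 10.61, 10.78 and 10.78 in Hoxa9 and Meis1 cells. The groups did not overlap, and the 4 Meis1 deleted arrays lay under the lowest Hoxa9 and Meis1 array. Cdk1 fell by 0.21 ± 0.05 on the log2 scale (adjusted p = 0.0121), and its linear level fell by 13.7%. The cyclin Ccnb2 had values of 9.70, 9.68, 9.71 and 9.78 in Meis1 deleted cells and 9.89, 9.91, 9.95 and 9.99 in Hoxa9 and Meis1 cells, again with no overlap, and fell by 0.22 ± 0.04 (adjusted p = 0.00289). Cdca3, which triggers destruction of the mitosis inhibitor Wee1, fell by 0.22 ± 0.05 (adjusted p = 0.00625). The S phase and G2 cyclin Ccna2 had values of 9.99 to 10.05 in Meis1 deleted cells and 10.10 to 10.12 in Hoxa9 and Meis1 cells, with no overlap but a difference of only -0.08 ± 0.04 that did not pass (adjusted p = 0.134). Cdc25c did not pass either (0.10 ± 0.06, adjusted p = 0.210). Ccna2 was called lower when 64 was added to the linear values (-0.07, adjusted p = 0.0230).

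Of the 3 mitotic kinases, 2 were higher and 1 did not pass. Plk1, which acts at centrosomes, kinetochores and the cleavage site, read 7.87, 7.67, 7.83 and 7.91 in Meis1 deleted cells, against 7.34, 7.19, 7.41 and 7.31 in Hoxa9 and Meis1 cells. The gap between the groups, 0.26, was wider than the range within either group. Plk1 averaged 7.82 ± 0.10 in Meis1 deleted cells and 7.31 ± 0.09 in Hoxa9 and Meis1 cells (SD, n = 4 each), a level 42.2% higher (log2 fold change 0.51 ± 0.07 SE, adjusted p = 1.71e-04).

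Aurka, the centrosomal kinase that activates Plk1, read 8.80, 9.13, 9.02 and 8.92 in Meis1 deleted cells, against 8.69, 8.69, 8.61 and 8.66 in Hoxa9 and Meis1 cells. The Hoxa9 and Meis1 arrays were close together and all under the lowest Meis1 deleted array. Its log2 fold change was 0.31 ± 0.07 (adjusted p = 0.00504). Nek2, a kinase that separates centrosomes, averaged 8.17 ± 0.10 in Meis1 deleted cells and 8.11 ± 0.10 in Hoxa9 and Meis1 cells, and its groups overlapped (0.06 ± 0.07, adjusted p = 0.538).

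**Figure D3:**
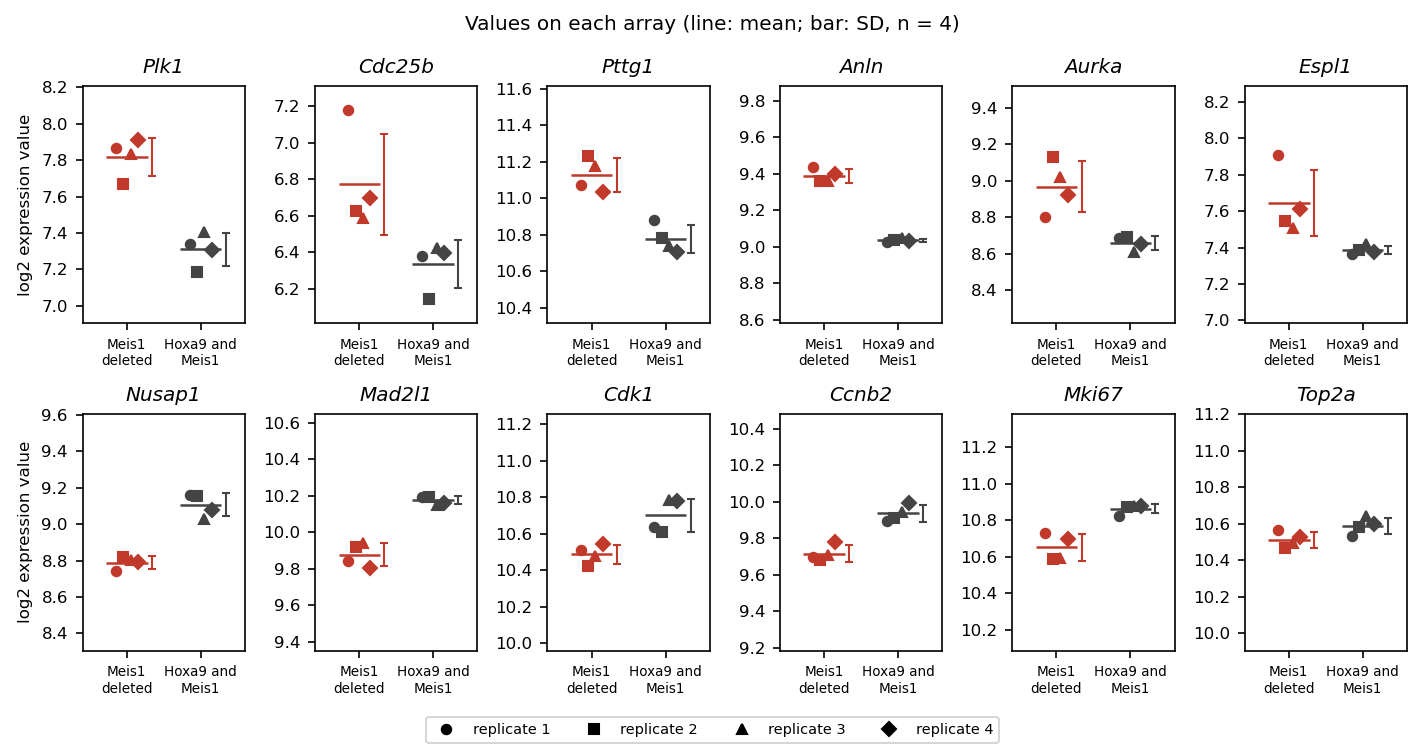
Log2 expression values of 12 members on each of the 8 arrays, Meis1 deleted on the left of each panel and Hoxa9 and Meis1 on the right; lines are means, bars are SD (n = 4) and symbols give the replicate number. The groups are apart in all panels but that of Top2a, and replicate 1 of the Meis1 deleted arrays stands highest for Cdc25b (7.18) and Espl1 (7.91). Vertical axes span the same log2 distance and do not start at 0.

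The spindle checkpoint was split. Mad2l1, the protein that blocks Cdc20 at unattached kinetochores, read 9.85, 9.92, 9.94 and 9.80 in Meis1 deleted cells, against 10.19, 10.19, 10.15 and 10.16 in Hoxa9 and Meis1 cells. The lowest Hoxa9 and Meis1 array was 0.21 above the highest Meis1 deleted array. Mad2l1 fell by 0.30 ± 0.04 (adjusted p = 5.25e-04), and its linear level fell by 18.6%.

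Bub1b, the BubR1 subunit of the same inhibitor complex, was higher. Its values were 8.84, 8.77, 8.74 and 8.78 in Meis1 deleted cells and 8.59, 8.58, 8.68 and 8.59 in Hoxa9 and Meis1 cells, with no overlap, and the log2 fold change was 0.17 ± 0.04 (adjusted p = 0.0105). Bub3, which brings Bub1b to kinetochores, was lower by a small step, with a mean of 10.96 ± 0.04 in Meis1 deleted cells and 11.07 ± 0.02 in Hoxa9 and Meis1 cells (-0.11 ± 0.04, adjusted p = 0.0469). That call was lost when any array but Meis1 deleted replicate 4 was left out, with adjusted p of 0.0608 to 0.107. Without Meis1 deleted replicate 1 Bub3 was at -0.10 (adjusted p = 0.0608). The kinases Bub1 (-0.04 ± 0.05, adjusted p = 0.521) and Ttk (0.07 ± 0.05, adjusted p = 0.365) did not pass.

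Anaphase is opened by the anaphase-promoting complex, whose targets include securin. Pttg1, the securin that holds separase in check, read 11.07, 11.23, 11.18 and 11.03 in Meis1 deleted cells, against 10.88, 10.78, 10.74 and 10.71 in Hoxa9 and Meis1 cells. The groups were separated by 0.15. The level was 27.7% higher in Meis1 deleted cells (log2 fold change 0.35 ± 0.06, adjusted p = 0.00106).

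Separase itself, Espl1, had values of 7.91, 7.54, 7.51 and 7.61 in Meis1 deleted cells and 7.36, 7.39, 7.42 and 7.38 in Hoxa9 and Meis1 cells. All Meis1 deleted arrays were higher, and replicate 1 stood above the other 3. The log2 fold change of 0.26 ± 0.08 (adjusted p = 0.0298) was 0.17 without that array (adjusted p = 0.00918), and the call was lost when any Hoxa9 and Meis1 array or Meis1 deleted replicate 4 was left out (adjusted p of 0.0519 to 0.0675). Ube2c, the conjugating enzyme of the anaphase-promoting complex, was lower (-0.14 ± 0.05, adjusted p = 0.0398), a call lost without Meis1 deleted replicate 4 or without Hoxa9 and Meis1 replicate 1, 2 or 4 (adjusted p of 0.0709 to 0.104). Its activators Cdc20 (0.05 ± 0.04, adjusted p = 0.366) and Fzr1 (-0.05 ± 0.06, adjusted p = 0.540) did not pass.

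The chromosomal passenger complex, which corrects wrong attachments and then steers cytokinesis, had 4 of 4 members that did not pass. Incenp, its scaffold, had a log2 fold change of 0.09 ± 0.10, and Aurkb, its kinase, of 0.04 ± 0.04. The targeting subunits Cdca8 (-0.08 ± 0.05) and Birc5 (-0.10 ± 0.05) lay on the other side of 0. Their adjusted p ran from 0.120 to 0.520, and the groups overlapped for each. Missing the threshold does not show that the levels were equal. Without Meis1 deleted replicate 1 Birc5 was lower (-0.13, adjusted p = 0.0344), and so it was with array weights (-0.13, adjusted p = 0.0219), while Incenp turned to -0.02 (adjusted p = 0.821).

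At the centromere and kinetochore, 2 of 6 measured members were lower and 4 did not pass. Cenpa, the histone that marks centromeres, had values of 10.59, 10.45, 10.50 and 10.56 in Meis1 deleted cells and 10.68, 10.72, 10.81 and 10.84 in Hoxa9 and Meis1 cells. The groups did not overlap, and Cenpa fell by 0.24 ± 0.05 (adjusted p = 0.00499). Cenpf, a large kinetochore protein of late G2, averaged 8.73 ± 0.06 in Meis1 deleted cells and 8.94 ± 0.05 in Hoxa9 and Meis1 cells, and fell by 0.21 ± 0.05 (adjusted p = 0.00514). The Ndc80 complex makes the grip on the microtubule, and its measured subunits Ndc80 (-0.03 ± 0.07), Spc25 (-0.00 ± 0.04) and Spc24 (-0.14 ± 0.06, adjusted p = 0.0711) did not pass. Neither did the kinetochore motor Cenpe (0.07 ± 0.04, adjusted p = 0.212). Spc24 was called lower without Hoxa9 and Meis1 replicate 1 (-0.17, adjusted p = 0.0462).

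Among 6 kinesins 1 was higher, 1 lower and 4 did not pass. Kif11, the motor that pushes spindle poles apart, had values of 7.90, 7.96, 7.92 and 7.81 in Meis1 deleted cells and 7.77, 7.73, 7.72 and 7.69 in Hoxa9 and Meis1 cells, with no overlap (0.17 ± 0.05, adjusted p = 0.0157). Kif4, a motor on chromosome arms, was lower (-0.17 ± 0.06, adjusted p = 0.0320), but the groups were only 0.0008 apart and the call was lost without each of 6 arrays, that is, any but Meis1 deleted replicate 1 and Hoxa9 and Meis1 replicate 4. The microtubule depolymerase Kif2c (0.23 ± 0.10, adjusted p = 0.105), the chromosome arm motor Kif22 (0.24 ± 0.10, adjusted p = 0.0813) and the late mitosis motors Kif20a (0.11 ± 0.05, adjusted p = 0.133) and Kif23 (-0.21 ± 0.08, adjusted p = 0.0637) did not pass. Of these 4, Kif2c was called higher without Hoxa9 and Meis1 replicate 1 (0.30, adjusted p = 0.0406), Kif22 without Meis1 deleted replicate 4 (0.31, adjusted p = 0.0295), and Kif23 was called lower without Meis1 deleted replicate 3 (-0.26, adjusted p = 0.0379). Without Meis1 deleted replicate 1 Kif22 was at 0.13 and Kif23 at -0.14 (adjusted p = 0.0921 and 0.0928). With array weights Kif20a (0.15, adjusted p = 0.0418), Kif2c (0.26, adjusted p = 0.0447) and Kif22 (0.18, adjusted p = 0.0327) were called higher. Kif23 had the lowest mean level of all members, 5.74 ± 0.17 in Meis1 deleted cells and 5.95 ± 0.08 in Hoxa9 and Meis1 cells.

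Of the spindle microtubule proteins, Nusap1, which bundles microtubules near chromosomes, had values of 8.74, 8.82, 8.80 and 8.79 in Meis1 deleted cells and 9.16, 9.16, 9.03 and 9.08 in Hoxa9 and Meis1 cells. The groups were 0.21 apart, with each group within a range narrower than that gap. Nusap1 fell by 0.32 ± 0.05 (adjusted p = 3.84e-04), and its linear level fell by 19.7%. Its promoter is the one printed above with neither motif. Tpx2, which activates Aurka on spindle microtubules, averaged 8.76 ± 0.15 in Meis1 deleted cells and 8.53 ± 0.10 in Hoxa9 and Meis1 cells. It was the only called member whose groups overlapped (0.23 ± 0.08, adjusted p = 0.0469), and the call was lost without each of 6 arrays, any but Meis1 deleted replicate 4 and Hoxa9 and Meis1 replicate 2. Without Meis1 deleted replicate 1 its difference was 0.16 (adjusted p = 0.0765). Hmmr, a spindle pole protein, did not overlap between groups but did not pass (0.12 ± 0.04, adjusted p = 0.0614). It was called higher in 4 of the 24 other settings (adjusted p of 0.0201 to 0.0450). The midzone bundler Prc1 did not pass (-0.01 ± 0.05, adjusted p = 0.892).

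In cytokinesis, Anln, the anillin that scaffolds the contractile ring, read 9.44, 9.36, 9.36 and 9.40 in Meis1 deleted cells, against 9.03, 9.04, 9.05 and 9.03 in Hoxa9 and Meis1 cells. It had the widest gap between groups of all members, 0.31, and a spread of 0.04 in Meis1 deleted cells and 0.0087 in Hoxa9 and Meis1 cells (SD, n = 4 each). The log2 fold change was 0.35 ± 0.04 (adjusted p = 6.06e-05), the smallest adjusted p among the members. Ect2 (0.11 ± 0.07, adjusted p = 0.246) and Racgap1 (-0.04 ± 0.04, adjusted p = 0.486), which switch on RhoA at the cleavage plane, did not pass, and Ect2 was at 0.04 without Meis1 deleted replicate 1 (adjusted p = 0.482).

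Genes of chromosome structure were lower or did not pass. Mki67, the Ki-67 coat protein of mitotic chromosomes, read 10.73, 10.59, 10.59 and 10.70 in Meis1 deleted cells, against 10.83, 10.87, 10.88 and 10.88 in Hoxa9 and Meis1 cells. No array overlapped, and Mki67 fell by 0.21 ± 0.05 (adjusted p = 0.00547). Top2a, which untangles sister chromatids, had 10.57, 10.46, 10.49 and 10.53 in Meis1 deleted cells and 10.54, 10.58, 10.64 and 10.60 in Hoxa9 and Meis1 cells. These groups overlapped through replicate 1 of each, and the difference did not pass (-0.08 ± 0.04, adjusted p = 0.193). With its probe sets averaged Top2a was called lower (-0.12, adjusted p = 0.0400).

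The condensin core subunits Smc2 and Smc4, which compact chromosomes, were both lower by small steps. Smc2 averaged 10.36 ± 0.03 in Meis1 deleted cells and 10.48 ± 0.02 in Hoxa9 and Meis1 cells (-0.12 ± 0.04, adjusted p = 0.0300). For Smc4 the means were 10.71 ± 0.02 in Meis1 deleted cells and 10.85 ± 0.07 in Hoxa9 and Meis1 cells (-0.14 ± 0.05, adjusted p = 0.0328). The Smc2 call was lost without each of 5 arrays and the Smc4 call without each of 6, the exceptions being Meis1 deleted replicates 1 and 2 and Hoxa9 and Meis1 replicate 1 for Smc2, and Meis1 deleted replicate 1 and Hoxa9 and Meis1 replicate 3 for Smc4. The condensin I subunits Ncapd2 (-0.05 ± 0.09) and Ncapg (0.07 ± 0.07) did not pass, with adjusted p of 0.683 and 0.517. Ncapd2 read 8.77, 8.37, 8.34 and 8.37 in Meis1 deleted cells and 8.50, 8.53, 8.54 and 8.50 in Hoxa9 and Meis1 cells. The first Meis1 deleted array was above all Hoxa9 and Meis1 arrays and the other 3 were below them, and without it Ncapd2 was lower (-0.16, adjusted p = 0.00703). Ncapg was at 0.01 without that array (adjusted p = 0.890).

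How firmly these calls stood differed between members. Without Meis1 deleted replicate 1, 22 of 48 members were called, beside 41.6% of all genes. Without Hoxa9 and Meis1 replicate 2, the lowest count, 15 of 48 were, a smaller share than the 33.2% of all genes. The sign was the same for 22 of the 22 called members in each of the 24 other settings tried. For every called member but Tpx2 the groups did not overlap, so fits on fewer arrays could not turn its sign. Of the 22, 14 were called whichever array was left out: Plk1, Aurka, Bub1b, Pttg1, Kif11 and Anln among the higher, and Ccnb2, Cdk1, Cdca3, Mad2l1, Cenpa, Cenpf, Nusap1 and Mki67 among the lower. Of these 14, averaging the probe sets of a gene lost Kif11 (0.02, adjusted p = 0.932), Cenpa (-0.11, adjusted p = 0.165) and Cenpf (-0.14, adjusted p = 0.389). For Kif11 and Cenpf, a further probe set in the average read at least 0.5 under every other array on Meis1 deleted replicate 1. Leaving out probe sets named as matching several transcripts lost Bub1b (0.11, adjusted p = 0.114). The 10 called in each of the 22 settings other than those within a spike-in group were Plk1, Aurka, Pttg1, Anln, Ccnb2, Cdk1, Cdca3, Mad2l1, Nusap1 and Mki67. The arrays also fell into 2 groups by the bioB hybridisation spike-in, which read 4.04 to 4.28 on Meis1 deleted replicates 1 to 3 and Hoxa9 and Meis1 replicates 1 and 2, and 6.43 to 6.61 on Meis1 deleted replicate 4 and Hoxa9 and Meis1 replicates 3 and 4. No label names a batch. With the spike-in group as a block 20 of 48 members were called, beside 38.3% of all genes. Within the first group 6 of 48 were, a smaller share than the 21.4% of all genes. The second group holds a single Meis1 deleted array, so its differences are given as values only.

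Sizes of the largest changes were compared within the spike-in groups and differed for some. Their signs could not differ there, since Meis1 deleted and Hoxa9 and Meis1 arrays did not overlap for any of the genes below. Plk1 differed by 0.53 within the first (adjusted p = 0.00900) and by 0.55 within the second. Anln differed by 0.35 and 0.36, Pttg1 by 0.33 and 0.31, Nusap1 by -0.37 and -0.26 and Mad2l1 by -0.29 and -0.35, and these 4 genes were also called within the first group (adjusted p of 0.00658 to 0.0258). The differences of Cdc25b were 0.54 and 0.29 and those of Aurka 0.30 and 0.29, with adjusted p of 0.110 and 0.0978 within the first group. Cdk1 differed by -0.15 within the first group (adjusted p = 0.111) and by -0.24 within the second. For Ccnb2 the values were -0.21 (adjusted p = 0.0367) and -0.19, and for Mki67 -0.21 (adjusted p = 0.0776) and -0.18.

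Direction of change was set beside abundance, a description chosen after the values were seen. Of the 24 members at or above the members' median level of 8.85, 2 were higher (Pttg1 and Anln) and 11 lower. Of the 24 members under it, 7 were higher and 2 lower (Cenpf and Kif4). Median log2 fold changes were -0.09 in the more abundant set and 0.08 in the less abundant set. Of all tested genes at or above the same level 19.3% were higher and 26.2% lower, and of those under it 19.1% were higher and 16.3% lower. Across the 48 members level and change had a Spearman rho of -0.44 and a Pearson r of -0.39, and across all 11836 genes the rho was -0.06. These are descriptions over genes that share the same 8 arrays, and levels of different probe sets depend on their probes as well as on RNA amount.

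**Figure D4:**
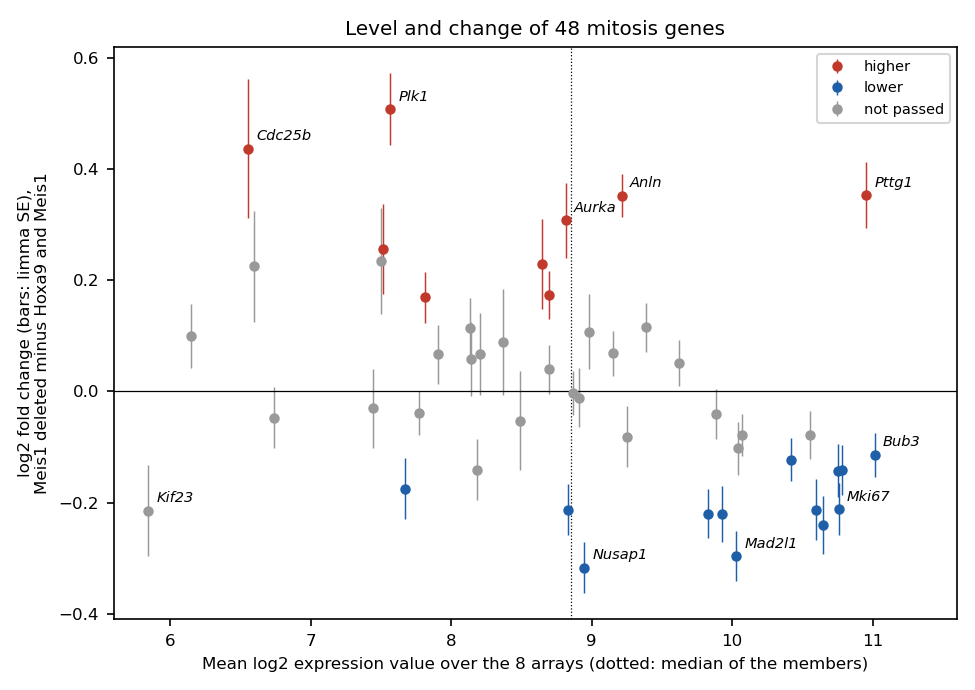
Log2 fold change (Meis1 deleted minus Hoxa9 and Meis1, bars 1 limma standard error) of the 48 members against their mean log2 expression value over the 8 arrays; the dotted line is the members' median level of 8.85. To the right of it 11 genes are lower and 2 higher, and to the left 7 are higher and 2 lower.

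Many members had more than 1 probe set, which gives a second reading of the same RNA. Of the 89 probe sets 80 were kept, and 24 genes had at least 2. In a fit over all 18749 kept named probe sets, 33.1% were called, and 22 of the 80 member probe sets were, 10 higher and 12 lower. In 16 of the 24 genes all kept probe sets had 1 sign, and in 13 without Meis1 deleted replicate 1. Only Pttg1 and Anln had 2 called probe sets, all higher, and 15 of the 24 genes had none. One further Pttg1 probe set read 8.68, 8.64, 8.75 and 8.69 in Meis1 deleted cells and 8.33, 8.36, 8.39 and 8.51 in Hoxa9 and Meis1 cells (0.29 ± 0.05, adjusted p = 0.00228), while the other overlapped between groups and did not pass (0.16 ± 0.07, adjusted p = 0.101). The further probe set of Anln differed by 0.29 ± 0.05 (adjusted p = 0.00125). For genes called above, the further probe sets of Cenpa (0.02 ± 0.08, adjusted p = 0.885) and Kif11 (-0.13 ± 0.30, adjusted p = 0.780) lay on the other side of 0 and did not pass. Without Meis1 deleted replicate 1 that of Kif11 was at 0.15 (adjusted p = 0.643). A further one of Bub1b was at 0.11 ± 0.05 (adjusted p = 0.128). Those of Cenpf (-0.20 ± 0.37 and -0.02 ± 0.05), Tpx2 (0.08 ± 0.08), Bub3 (-0.05 ± 0.06), Smc2 and Smc4 did not pass either. Leaving out the same array put the first of Cenpf at 0.17 and that of Tpx2 at -0.01. A weaker Top2a probe set was lower with no overlap, at 6.705, 6.866, 6.848 and 6.763 in Meis1 deleted cells and 6.899, 6.935, 7.002 and 6.970 in Hoxa9 and Meis1 cells (-0.16 ± 0.05, adjusted p = 0.0417), while the probe set that stands for the gene did not pass. Ube2c, Bub3 and Tpx2 did not pass in this fit.

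Among the further probe sets the array that stood apart was again visible. On Meis1 deleted replicate 1, 10 member probe sets from 7 genes (Cenpe, Cenpf, Kif11, Hmmr, Smc2, Smc4 and Ncapg) read at least 0.5 under the lowest other array, which is 12.5% of the 80 member probe sets against 2.75% of all named ones. None of the 10 stands for its gene in the results above. A further Smc2 probe set read 5.68, 7.91, 7.93 and 7.36 in Meis1 deleted cells and 7.93, 7.81, 7.66 and 7.06 in Hoxa9 and Meis1 cells. The first of these 8 values was far under the rest, and its difference of -0.40 was 0.12 without that array. For a further Ncapg probe set -0.18 became 0.27, and 8 of the 10 turned sign in this way. It is the array with the largest 3′ minus 5′ differences of Gapdh and Actb given above, and whether RNA quality set these probe set values was not tested. Without it 25 of the 80 member probe sets were called, 10 higher and 15 lower. The share of all named probe sets called in that fit is not given here. The count is therefore no result about the members.

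**Figure D5:**
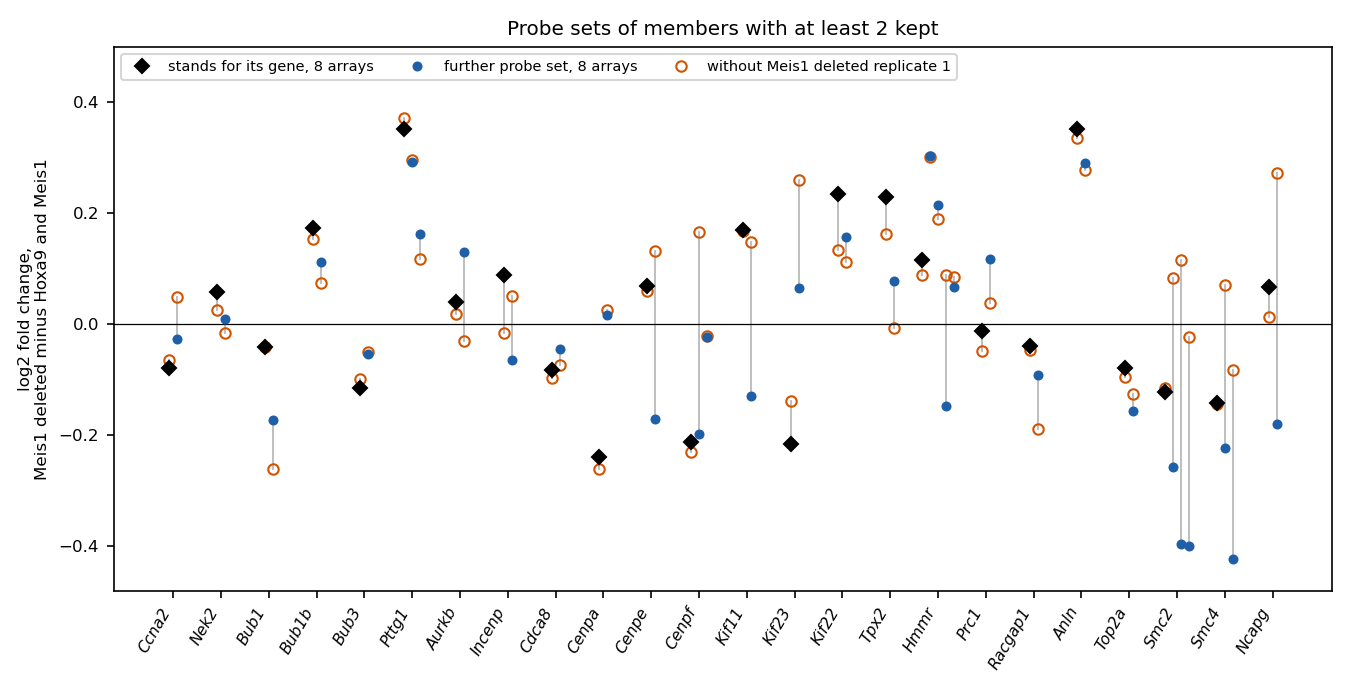
Log2 fold change (Meis1 deleted minus Hoxa9 and Meis1) of every kept probe set of the 24 members with at least 2, over 8 arrays (filled; diamonds stand for the gene) and without Meis1 deleted replicate 1 (open), joined by grey lines. Further probe sets of Smc2 near -0.40 lie near 0 or above without that array, while both Anln probe sets stay at 0.28 or above.

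Beyond the listed genes, 108 others with roles in mitosis gave the context, 89 of them tested. Of these, 17 were higher and 21 lower (42.7% called, median -0.02). Bora, the cofactor through which Aurka activates Plk1, read 8.70, 8.71, 8.64 and 8.60 in Meis1 deleted cells, against 8.06, 8.16, 7.92 and 8.06 in Hoxa9 and Meis1 cells, a log2 fold change of 0.62 ± 0.06 (adjusted p = 1.52e-05). Bora, Aurka and Plk1 act in a chain, and each was higher with no overlap, a lack of overlap found in 38.6% of all genes. They were set together after their values were seen. Of Bora's set of 11 other mitotic kinases and regulators, 1 was higher and 4 were lower. The augmin subunit Haus8 (0.51), the kinetochore proteins Cenpl (0.47) and Ska1 (0.28), the pocket protein Rbl1 of the DREAM repressor (0.36) and the kinesin Kif20b (0.30) were the other higher genes of smallest adjusted p.

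Kinetochore genes outside the list were called in both directions. Of 25 other centromere and kinetochore genes 11 were lower and 5 higher, with Cenpp at -0.39, Mis12 at -0.31, Cenpm at -0.27 and Zwint at -0.22, while the spindle protein Ckap2 (-0.30) and the cohesin cofactor Pds5b (-0.21) were lower as well. Of 18 other kinesins and spindle proteins 7 were higher and 1 was lower. Anaphase-promoting complex subunits had 0 of 12 higher and 3 lower. Foxm1, the transcription factor of many late cell cycle genes, had 5.83, 5.80, 5.84 and 5.72 in Meis1 deleted cells and 5.77, 5.81, 5.76 and 5.72 in Hoxa9 and Meis1 cells. Its values overlapped and it did not pass (0.03 ± 0.04, adjusted p = 0.611).

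Genes of the preceding stage, DNA replication and E2F control, were set beside them. Of 52 tested, 3 were higher and 23 lower, with a median of -0.12, against 9 higher and 13 lower of 48 mitosis genes with a median of -0.02; the difference between the lists was not tested. E2f2, an activator of S phase genes, read 7.47, 7.30, 7.17 and 7.30 in Meis1 deleted cells and 8.33, 8.39, 8.34 and 8.42 in Hoxa9 and Meis1 cells, and fell by 1.06 ± 0.06 (adjusted p = 5.76e-07). The nucleotide pool enzyme Dut fell by 0.33 and the origin licensing factor Cdc6 fell by 0.31. None of the 48 mitosis genes changed as much as E2f2, but only 1 of the 52 replication genes, E2f2 itself, changed by at least 0.5. Median sizes of change were 0.14 for the replication genes and 0.13 for the mitosis genes.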

How the data were processed

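RNA of 8 samples was measured on 1-colour arrays, 4 per group, with 100 ng of total RNA per array per the labels' protocols. The deposited values are log2 expression values, judged so from the values themselves (2.65 to 13.2, 0 missing), and the authors had put the arrays on a common scale, since array medians lie between 4.69 and 4.74. Per the submitters' processing notes MAS5 was used, for a step and in a version that they do not give, and the way probes were summarised is not stated.

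Of 45037 probe sets that are not controls, 28898 had 1 gene symbol in GEO's platform annotation, 551 several and 15588 none, and only those with 1 were named. The member symbols were checked against RefSeq (GRCm38.p6), which changed 0 of 48. Probe sets in the lowest 40% by mean (under 4.29) were left out, which kept 27022, and a gene was represented by its probe set of highest mean. The design allowed for linear values, but the table was on a log scale and no offset was added. The lmFit and eBayes functions of limma 3.58.1, run in R 4.3.3, were fitted over 11836 genes with group as the only term and Benjamini-Hochberg adjustment, with a threshold of 0.05, and were tested on simulated data. A positive fold change means higher in Meis1 deleted cells; its error is the standard error of the fit, and that of a level is the SD. Control transcripts were compared by an exact permutation test (two-sided, 70 assignments). Precision is limited by the 4 arrays of a group. Plots were made with matplotlib 3.10.9 under Python 3.11.15.

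Every member could be named; values per array are given for called members with no overlap and a change of at least 0.25, for Mki67, Top2a, Cdk1 and Foxm1, and for others chosen after their values were seen. Other mitosis genes named are the 6 of smallest adjusted p in each direction, and replication genes the 3 of smallest. The members and lists were chosen with earlier results of these data known. Correlations of same-numbered deviations were 0.03, 0.22, -0.13 and 0.29, within a range of -0.34 to 0.34 over all pairs of numbers. The largest of these followed the spike-in groups, so they cannot show whether replicate numbers pair the samples. No block entered the fit. No 2 arrays held identical values.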

Additional observations from a re-analysis of the deposited data

Results flagged for a closer look

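In single groups of 4 arrays, some members had an array far from the other 3, by the gap to its neighbour over the group's range. Over 64 genes, 128 groups of arrays were looked at and 7 stood out, 3 of them through Meis1 deleted replicate 1, while chance marks about 1 in 20 such groups. In Meis1 deleted cells, Ccna2 read 9.99 in replicate 1 against 10.04 to 10.05 in the others, Racgap1 read 7.78 against 7.74 to 7.75, and Ncapd2, a condensin I subunit, read 8.77 against 8.34 to 8.37. Without that array Ncapd2 was called lower (-0.16, adjusted p = 0.00703). In Hoxa9 and Meis1 cells, Cdc25b read 6.14 in replicate 2 against 6.38 to 6.42, Bub1b read 8.68 in replicate 3 against 8.58 to 8.59, Racgap1 read 7.85 in replicate 4 against 7.77 to 7.78, and Mki67 read 10.83 in replicate 1 against 10.87 to 10.88.

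Among 64 such groups of further probe sets of the members 4 stood out, 3 of them through Meis1 deleted replicate 1. On that array a further Aurkb probe set read 8.48 against 7.78 to 7.88 in the other Meis1 deleted arrays, a further Cenpe probe set 7.12 against 8.23 to 8.44, and a further Smc4 probe set 8.54 against 9.78 to 9.99. A further Cdca8 probe set read 8.08 in Meis1 deleted replicate 2 against 8.35 to 8.39.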

How the results depend on the processing

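With 22 members called (9 higher, 13 lower), leaving out 1 array in turn gave 15 to 22 called members, 7 to 9 higher and 8 to 14 lower (8 without Hoxa9 and Meis1 replicate 2), with a median of -0.0315 to 0.00596, 3750 to 4923 genes of all, 27 to 41 other mitosis genes, 20 to 28 replication genes and 15 to 25 member probe sets. Within the first spike-in group 6 members were called (3 higher and 3 lower, median 0.0207), 2537 genes of all, 16 other mitosis genes and 12 replication genes. Within the second, where the lone Meis1 deleted array is assumed to vary like the others, the counts were 10 (4 lower), 2979, 15 and 12. Both fits hold fewer arrays. The members' median became -0.0491 when probe sets of a gene were averaged and 0.00259 with the spike-in group as a block. With the replicate block 20 members were called (9 higher, 11 lower) and 4433 genes of all. Whether the numbers pair the samples is not known, so this is given only here. Other filters, scalings, offsets and fits gave 16 to 27 called members, beside 26% to 48% of all genes. Genes that turned sign passed the test in neither setting, and the cause was not tested. With averaged probe sets these were Cenpe (-0.0507), Prc1 (0.0530), Ncapg (-0.0561) and Foxm1 (-0.0498), and without probe sets that match several transcripts Prc1 (0.117). Array weights turned Incenp (-0.00349). The spike-in block turned Ndc80 (0.0152) and Spc25 (0.00541), and with Meis1 deleted replicate 1 also left out Ndc80 (0.0157) and Incenp (-0.00461). Within the first spike-in group Ndc80 (0.0437), Spc25 (0.0178) and Prc1 (0.0329) turned, and within the second Bub1 (0.0212), Kif22 (-0.0191), Ncapg (-0.0174) and Foxm1 (-0.0203). Leaving out 1 array gave Incenp values of -0.0161 (without Meis1 deleted replicate 1) to 0.148, Spc25 values of -0.0148 to 0.0138, Ndc80 values of -0.0839 to 0.0125 and Prc1 values of -0.0483 to 0.0170.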

Other observations

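Cohesin and its regulators, which hold sister chromatids together until separase acts, had 2 higher, 1 lower and 8 that did not pass among 11 tested genes. Of 4 condensin genes outside the list, 1 was lower and 3 did not pass. Among 8 tested genes of the Foxm1, B-Myb and DREAM complexes, which control late cell cycle transcription, 2 were higher and 6 did not pass. Of 11 other mitotic kinases and regulators, 1 was higher, the Plk1 cofactor Bora, and 4 were lower.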
